A study of Mus musculus with 96 samples.

Results

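The Sm, LSm and snRNP protein genes were described in single cells of mouse bone marrow. They were taken as every gene symbol of the expression table that begins with Snrp or Snrnp, or with Lsm and a digit, which gave 32 of 24321 symbols. Where a symbol had several transcript rows, the highest row of a cell was used. The series holds 96 marrow cells, labelled as erythroid precursors from C57BL/6 animals of genotype Rpl11 +/lox, in which 1 of the alleles of a large-subunit ribosomal protein gene carries lox sites. The labels name no Cre driver, no treatment, no age, no separate animals and no wild-type cells, so the sources used here do not tell whether the lox allele was recombined, and every group below shares the genotype. Cells were captured on the Fluidigm C1 system and their cDNA was amplified with SMART-Seq chemistry. All cells carry 1 group label and count as 1 sample, so differences between groups of cells are descriptions without a test, and spreads are over cells.

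Cells were grouped by their own transcripts. Of the 96 cells, 69 listed at least 1000 genes at 1 RPKM or more (reads per 1000 bases of transcript and 1000000 mapped), the level called detected below. Among these, 56 cells had Mpo under 1000 RPKM and too few markers of another lineage to be set aside, and are called erythroid by this rule. Hba-a1 is an adult alpha globin gene whose transcript accumulates as red cell precursors mature. By its RPKM these cells fell into 10 low cells (under 150000), 18 mid cells (150000 to under 400000) and 28 high cells (400000 or more). A further 9 cells had Mpo, the myeloperoxidase gene of granulocyte precursors, at 1000 RPKM or more and are called Mpo-high. The remaining 4 cells had markers of another lineage and were set aside. Against the label, all 9 Mpo-high cells also detected the granule protease genes Elane, Prtn3 and Ctsg, and Klf1 and Gata1, which encode erythroid transcription factors, were detected in 0 of 9. Klf1 was detected in 8 of 10 low cells and in all mid and high cells. The 2 low cells without it, cells 60 and 68, were the 2 low cells with Plac8, an early progenitor marker, at 1000 RPKM or more. Each had 4 of the 15 measured erythroblast markers at 10 RPKM or more, as had Mpo-high cells 25, 74, 77 and 88. For these 2 low cells the name erythroid thus rests on the rule alone. Counts of calls and median differences over the members against low cells are also given without them. Values per gene, rho and steps include them unless stated. Over 10 monocyte or macrophage markers the summed level was 0 to 7205 RPKM in low cells, 0 to 0.209 without these 2 cells, and 800 to 13780 in Mpo-high cells. The 11 neutrophil markers summed to 0 to 168 RPKM in low and 3496 to 78847 in Mpo-high cells, and the 15 measured erythroblast markers to 2547 to 442316 and 150 to 1821. The Mpo-high cells were not uniform in these lists. Cells 20, 25, 50 and 57 had 6 to 9 of the 11 neutrophil markers at 10 RPKM or more. Cells 12, 20, 50, 74, 77 and 88 had 5 to 8 of the 10 monocyte or macrophage markers at that level. The part of these other-lineage transcripts in the results was not tested.

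The groups also differed in how much was detected. Median genes detected were 3831.5 in low, 2701 in mid, 1412.5 in high and 4900 in Mpo-high cells, whereas estimated depth ran the other way among erythroid cells, with medians, in units of 1000 reads, of 4856.3, 6651.95 and 7720.95 in low, mid and high cells and 5004.1 in Mpo-high cells. Over the 56 erythroid cells, Spearman's rho between Hba-a1 and genes detected was −0.94, a description of cells that share their library and RPKM total. The part that detection of all genes plays in the differences below was not tested, and fewer transcripts per cell cannot be told apart from a smaller share of the cell's RNA.

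Small nuclear ribonucleoproteins (snRNPs) are the RNA-protein particles that form the spliceosome, which removes introns from pre-mRNA. Each of the U1, U2, U4 and U5 RNAs is clasped by a ring of Sm proteins, SmB, D1, D2, D3, E, F and G, to which particle-specific proteins are added. The related LSm proteins form a nuclear ring, Lsm2 to Lsm8, that binds U6 RNA, and a cytoplasmic ring in which Lsm1 takes the place of Lsm8 and which promotes decapping and decay of mRNA. Maturing erythroblasts condense their nucleus and later expel it, while globin mRNA comes to dominate the transcript pool.

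Across the erythroid cells the family was lower the higher the Hba-a1 level. The mean of log2(RPKM + 1) over the 32 genes was 5.49 at the median of the low cells (4.68 to 5.95), 3.76 in mid cells (0.55 to 5.59) and 1.64 in high cells (0.31 to 3.04). No high cell reached the lowest low cell, and mid cells overlapped both. A median of 25 of the genes was detected in a low cell (20 to 27), 19.5 in a mid cell (3 to 26) and 8 in a high cell (2 to 16). Spearman's rho of the mean with Hba-a1 was −0.88 over the 56 cells, and −0.87 after globin genes were removed and each cell rescaled. Per gene, 20 of 31 genes with a value had rho below −0.5, where 33.7% of 5843 non-globin genes did, and the median over members was −0.64 against −0.42 over those genes. The members' median was −0.50 after globin genes were removed and each cell rescaled. Over the 26 erythroid cells with at least 2000 genes it was −0.53. No value over all genes is given for these 2 settings. The member mean and the number of genes detected had rho 0.92, so the 2 measures carry largely the same order of cells. Within the 28 high cells alone, rho was −0.43 with Hba-a1, 0.60 with genes detected and 0.07 with estimated depth.

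**Figure D1:**
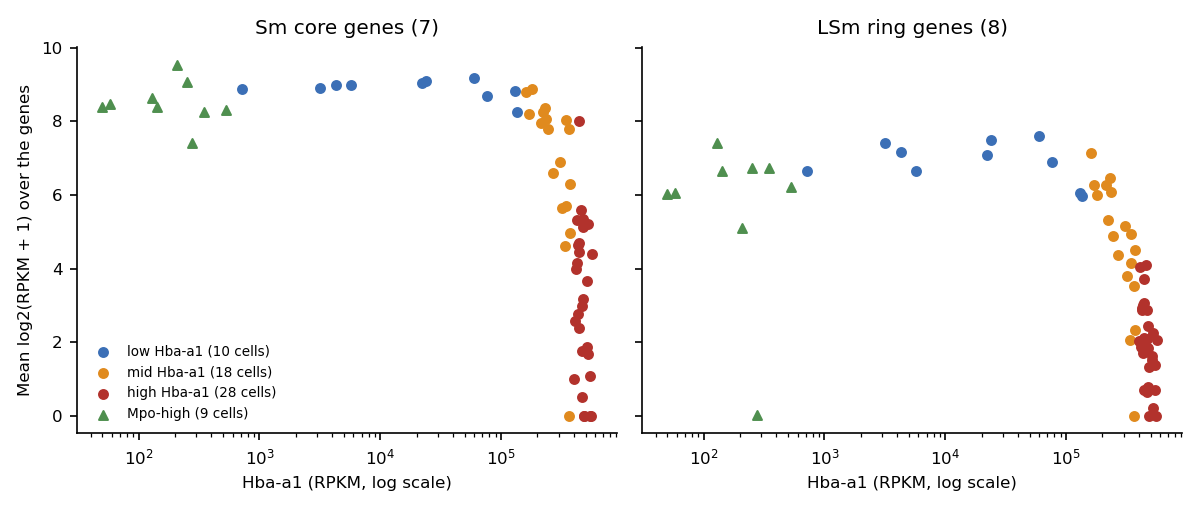
Mean log2(RPKM + 1) over the 7 Sm core genes (left) and the 8 LSm ring genes (right) against Hba-a1 RPKM on a log scale, with 1 point per cell and colours for the 4 groups. Low cells sit between 8.26 and 9.17 for the Sm core, high cells between 0 and 8.01, and 1 Mpo-high cell lies at 0.04 for the LSm ring.

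A call of lower or higher needed a difference of 1 or more between the group means of log2(RPKM + 1), and the same sign within every run code represented by 3 or more cells on each side. Run codes are those of the sample descriptions, which name 3, whereas titles and table columns name 1 code for all cells, and this conflict is not settled. Between high and low cells, 26 of the 32 genes were lower and 0 were higher, and the other 6 met neither call. Over the 5855 genes detected in 10 or more of the 69 cells, 64% were called lower and 2.19% higher. Without the condition on run codes 26 members were still lower, beside 72% of genes tested. The median difference over the 32 genes was −4.39, beside −1.93 over all genes tested. The same medians were −4.36 and −1.91 within run code SCP-1706013 and −3.70 and −1.81 within SCP-170608. The third code, SCP-1706080, held only 2 low cells. Of the 32, 28 met the filter on low values. The family also began higher, with a median low-cell mean of 6.13 against 2.77 over all genes tested, and across those 5855 genes the low-cell mean and the difference had a Spearman's rho of −0.77. The part that this starting level plays was not tested.

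**Figure D2:**
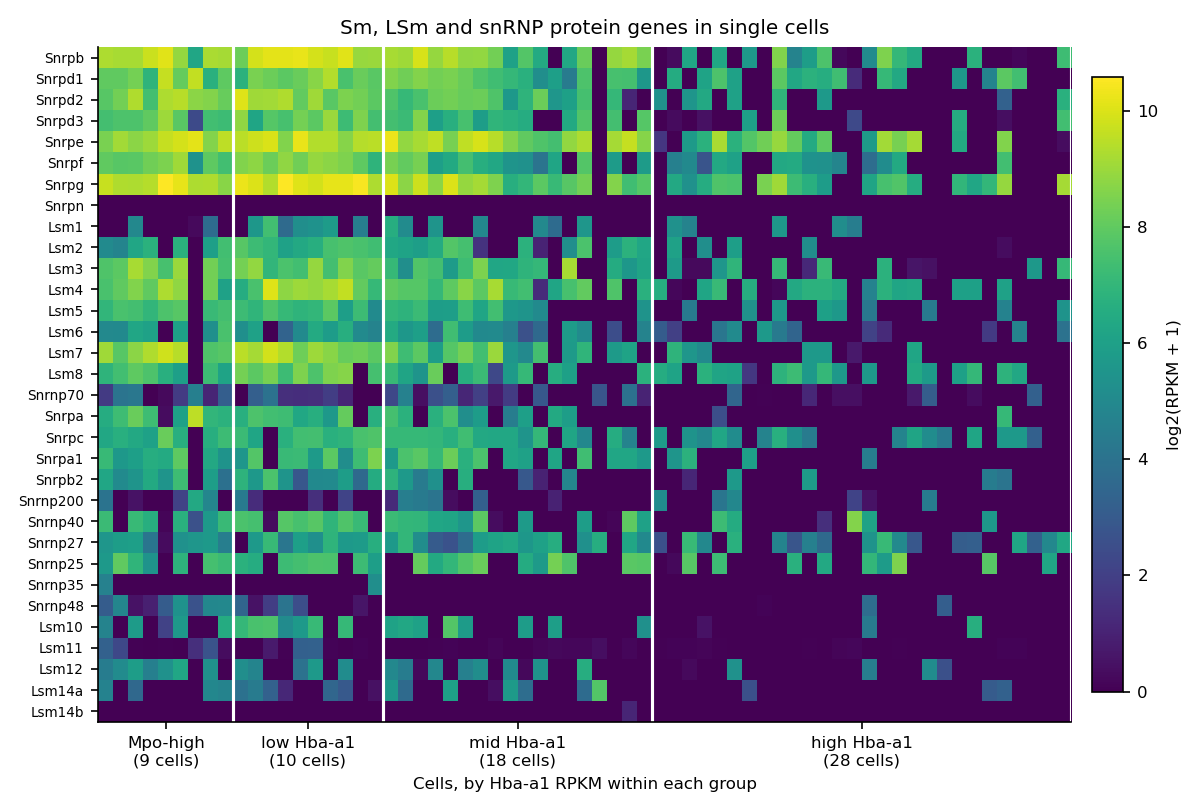
log2(RPKM + 1) of each of the 32 genes (rows, by role) in each of 65 cells (columns, ordered by Hba-a1 within the 4 groups separated by white lines). Rows of the Sm core and LSm ring are bright in Mpo-high and low cells, and become patchy with dark entries at 0 in mid and high cells.

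All 7 Sm core genes were lower in high than in low cells, with a median difference of −5.65 and a range from −7.10 (Snrpd2) to −4.48 (Snrpd1). All 7 were detected together in 10 of 10 low cells, 12 of 18 mid cells (66.7%, exact 95% interval 41.0% to 86.7%) and 1 of 28 high cells (3.57%, 0.0904% to 18.3%). In 4 of 28 high cells none of the 7 was detected. These intervals cover counting error only.

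SmE, SmF and SmG join as a subcomplex before the ring closes on RNA. Snrpg, which encodes SmG, was listed at 617 to 1509 RPKM in low cells (median 1116), at 0 to 1030 in mid cells (median 344) and at 0 to 572 in high cells (median 87.1), and was detected in 19 of 28 high cells. Its groups did not overlap between low and high. Snrpe, which encodes SmE, ran from 386 to 1195 RPKM in low cells (median 699), from 0 to 1237 in mid cells (median 516) and from 0 to 599 in high cells (median 69.3). It was detected in 17 of 28 high cells, at a median of 249 RPKM where detected, and the highest of those lay above the lowest low cells. Snrpf, which encodes SmF, had medians of 375 RPKM in low cells (118 to 481), 67.3 in mid cells (0 to 343) and 2.83 in high cells (0 to 165), and was detected in 14 of 28 high cells. High minus low was −5.13 for Snrpg, −4.95 for Snrpe and −5.65 for Snrpf.

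SmD1 pairs with SmD2, and SmD3 with SmB, before ring assembly. Snrpd2 was listed at 231 to 1077 RPKM in low cells (median 450), at 0 to 316 in mid cells (median 153) and at 0 to 120 in high cells (median 0). Only 8 of 28 high cells detected it, and none of them reached the lowest low cell. Its partner Snrpd1 had medians of 286 RPKM in low (109 to 659), 179 in mid (0 to 390) and 36.8 in high cells (0 to 240), and was detected in 16 of 28 high cells, so that low and high overlapped. Snrpd3 was at 73.9 to 508 RPKM in low cells (median 232), at 0 to 391 in mid cells (median 104) and detected in 5 of 28 high cells, with a highest value of 303. Snrpb, the gene for SmB, ran from 295 to 1207 RPKM in low cells (median 951) and from 0 to 993 in mid cells (median 402). In high cells it was detected in 13 of 28, with a highest value of 380, and 12 listed it at 0. High minus low was −6.75 for Snrpd3 and −6.52 for Snrpb. Partners of a pair were thus not detected equally often, with Snrpd1 in 16 and Snrpd2 in 8 of the same 28 cells. Floors of 3 reads lay between 0.0680 and 0.98 RPKM over the family at the median depth.

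Snrpn, which encodes the SmB-like protein SmN known from brain, was listed at 0 in every one of the 65 cells of the 4 groups, as was Snurf, which shares its transcript. The sources used here do not say how reads shared by near-identical copies, such as Snrpb and Snrpn or processed pseudogenes of Sm genes, were assigned.

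The 8 LSm ring genes were all lower in high than in low cells, with a median difference of −5.17. Without the 2 Plac8-high low cells Lsm8 differed by −3.06 and lost its call, since within SCP-170608 the difference was then 0.15, and the other 7 kept theirs. The 7 genes of the nuclear ring, Lsm2 to Lsm8, were detected together in 8 of 10 low cells, 7 of 18 mid cells and 0 of 28 high cells, which allows a share of up to 12.3% by the exact interval. For the cytoplasmic set, Lsm1 to Lsm7, the counts were 6 of 10, 5 of 18 and 0 of 28. Without the 2 Plac8-high cells, Lsm2 to Lsm8 were detected together in 7 of 8 low cells and Lsm1 to Lsm7 in 6 of 8.

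Lsm7 had the largest difference of the family, −7.53. It was listed at 243 to 915 RPKM in low cells (median 469), at 0 to 514 in mid cells (median 94.6) and at 0 to 117 in high cells, of which 6 of 28 detected it. Its low and high cells did not overlap, which held for 3 of the 32 genes (Lsm7, Snrpd2 and Snrpg), where 2.77% of all genes tested lay wholly lower in high cells. Lsm2 ran from 64.6 to 224 RPKM in low cells (median 154) and from 0 to 215 in mid cells (median 64.8), and was detected in 4 of 28 high cells, with a highest value of 65.9. Lsm3 had medians of 253 RPKM in low (124 to 481) and 83.9 in mid cells (0 to 591), and was detected in 9 of 28 high cells (highest 142). These 2 genes differed by −6.30 and −6.04 between high and low cells.

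Lsm4, like Lsm8, kept a median above the detection level in high cells. It was listed at 91.7 to 1069 RPKM in low cells (median 462), at 0 to 582 in mid cells (median 193) and at 0 to 144 in high cells (median 43.8, detected in 15 of 28), a difference of −5.07. Lsm5 ran from 32.6 to 240 RPKM in low cells (median 132) and from 0 to 166 in mid cells (median 46.4), and was detected in 9 of 28 high cells. Lsm6 was lower throughout, with medians of 35.1 RPKM in low (0 to 99.4) and 28.5 in mid cells (0 to 161), and was detected in 12 of 28 high cells. High minus low was −5.27 for Lsm5 and −3.37 for Lsm6.

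The genes that tell the nuclear and cytoplasmic rings apart differed in how they were detected. Lsm8, of the nuclear ring, was detected in 9 of 10 low cells (median 283 RPKM, 0 to 400), 12 of 18 mid cells (median 58.5, 0 to 282) and 18 of 28 high cells (median 52.2, 0 to 150). Its mean log2 value differed by −3.09 from low to mid and by −0.25 from mid to high, and the run codes did not share this course. From mid to high it was higher by 1.36 within SCP-1706013 and 1.53 within SCP-170608, and differed by −2.57 within SCP-1706080. Lsm1, of the cytoplasmic ring, was detected in 7 of 10 low cells (median 29.3 RPKM, 0 to 166), 7 of 18 mid cells and 5 of 28 high cells (highest 46.9), a high minus low difference of −2.85. Whether the 2 genes differ in this course was not tested.

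**Figure D3:**
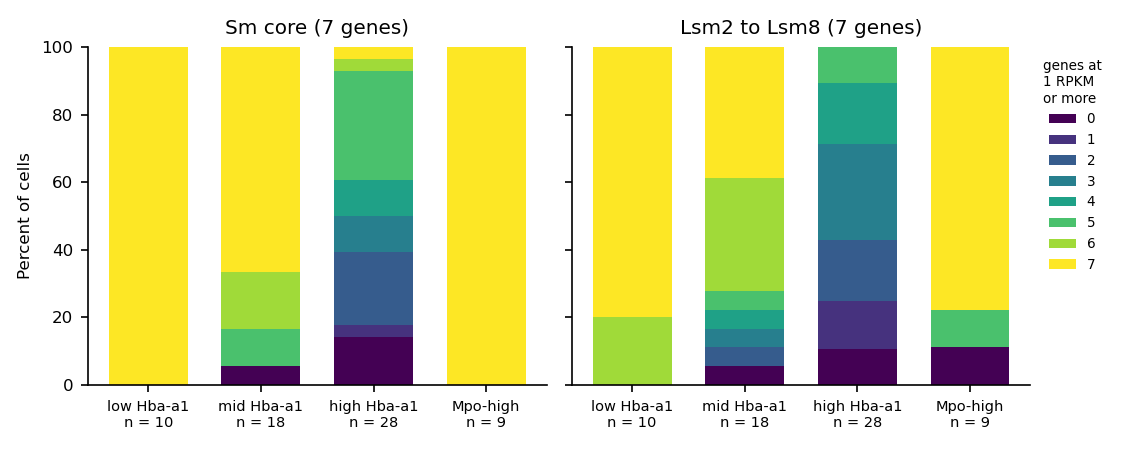
Percent of cells (vertical axis) in each of the 4 groups that detected 0 to 7 of the Sm core genes (left) and of Lsm2 to Lsm8 (right), as stacked bars. All 7 Sm core genes were detected in 10 of 10 low and 9 of 9 Mpo-high cells and in 1 of 28 high cells, and all of Lsm2 to Lsm8 in 0 of 28 high cells.

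Proteins particular to a single snRNP were lower in part. Of the 3 U1 proteins, Snrpa (the U1 A protein, which binds a stem-loop of U1 RNA) and Snrpc (the U1 C protein, which helps in 5′ splice site recognition) were lower in high cells by −5.89 and −3.17. Snrpa was detected in 9 of 10 low cells (median 102 RPKM, 0 to 268), 10 of 18 mid cells (median 28.8, 0 to 193) and 2 of 28 high cells (highest 136). Snrpc was found in 9 of 10 low cells (median 132 RPKM, 0 to 203), 15 of 18 mid cells (median 81.8, 0 to 159) and 17 of 28 high cells (median 22.9, 0 to 102). Its difference was −5.59 within run code SCP-1706013, −4.17 within SCP-1706080 (2 low cells) and −0.17 within SCP-170608, where Plac8-high cell 60 listed it at 0. Without the Plac8-high cells it was −1.56 in that code. Snrpc kept its call in 15 of 19 alternative settings, and one in which it lost it was the removal of globin genes with rescaling (−2.64). Some of these settings could not remove a call, and they are named with the Mpo-high results below. Snrnp70, the U1-70K protein, was low throughout, at a median of 1.62 RPKM in low cells (0 to 15.0) and 1.91 in mid cells (0 to 24.0), was detected in 4 of 28 high cells, and its difference of −0.99 met no call.

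Both U2 proteins were lower in high cells. Snrpa1 (the U2 A′ protein) was detected in 9 of 10 low cells (median 146 RPKM, 0 to 356), 14 of 18 mid cells (median 75.0, 0 to 296) and 4 of 28 high cells (highest 112), a difference of −5.42. Snrpb2 (the U2 B″ protein, which binds U2 RNA together with that of Snrpa1) was detected in 10 of 10 low cells (median 46.4 RPKM, 6.39 to 193), 8 of 18 mid cells (highest 113) and 5 of 28 high cells (highest 54.9), a difference of −4.70. In mid cells Snrpb2 was called lower (−3.36) and Snrpa1 was not (−0.96).

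Among the U5 and tri-snRNP proteins, Snrnp40 and Snrnp27 were called lower. Snrnp40 (the U5 40K protein) was detected in 8 of 10 low cells (median 176 RPKM, 0 to 228), 11 of 18 mid cells (median 55.9, 0 to 249) and 6 of 28 high cells (highest 395), a difference of −4.75. Snrnp27, of the tri-snRNP, was detected in 9 of 10 low (median 53.1 RPKM, 0 to 140), 16 of 18 mid (median 49.5, 0 to 128) and 18 of 28 high cells (median 7.99, 0 to 138), a smaller difference of −2.31. Snrnp200, the Brr2 helicase that unwinds U4 from U6, was detected in 4 of 10 low, 6 of 18 mid and 5 of 28 high cells. Its highest value in high cells was 34.6 RPKM, and its difference was −0.17.

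The minor spliceosome, which removes a small class of introns, contributes 3 genes. Snrnp25 was detected in 8 of 10 low cells (median 129 RPKM, 0 to 198), 11 of 18 mid cells (median 87.2, 0 to 328) and 9 of 28 high cells (highest 374), a difference of −3.36. Snrnp48 was detected in 4 of 10 low cells (highest 15.8 RPKM), 0 of 18 mid cells and 2 of 28 high cells (highest 12.9), and its −1.06 rests on those few cells. Snrnp35 was detected in 1 of 10 low cells, at 36.6 RPKM, and in no mid or high cell.

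The remaining genes lie outside the splicing rings. Lsm10, which replaces an Sm protein in the U7 snRNP of histone mRNA processing, was detected in 7 of 10 low cells (median 90.0 RPKM, 0 to 196), 8 of 18 mid cells (highest 214) and 2 of 28 high cells (highest 98.3), a difference of −4.31. Its U7 partner Lsm11 was detected in 2 of 10 low cells and in no mid or high cell. Lsm12 was detected in 5 of 10 low cells (median 7.48 RPKM, 0 to 51.4), 8 of 18 mid (highest 96.5) and 4 of 28 high cells (highest 40.2), a difference of −1.84. Lsm14a, a protein of cytoplasmic mRNP granules, was detected in 6 of 10 low (median 3.94 RPKM, 0 to 20.3), 7 of 18 mid (highest 213) and 3 of 28 high cells (highest 8.80), a difference of −1.65. Lsm14b was detected in 1 mid cell, at 1.11 RPKM.

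Mid cells stood between. Compared with low cells, 19 of the 32 genes were called lower and 0 higher, where 44.3% of genes tested were lower and 3.4% higher, and the median difference was −1.52 beside −1.08 over all genes tested. Without the condition on run codes 20 were lower, beside 52.6%. Within SCP-1706013 it was −2.45 (−1.33 over all genes), and within SCP-170608 −0.81 (−0.85), so in the latter code the family's median lay no lower than that of all genes. In mid cells 6 genes of the Sm core were called lower, and Snrpe was not (−0.96). Of the LSm ring, 7 were called lower, and Lsm6 was not (−0.73). Mid cell 94 detected none of the 15 ring genes, at 1184 genes and an estimated depth of 1541.2 in units of 1000 reads, the shallowest of the cells in the 4 groups.

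The difference was placed unevenly along the Hba-a1 level from gene to gene. Of the 26 genes lower in high cells, 20 had the larger step between mid and high, and 6 between low and mid (Lsm1, Lsm5, Lsm8, Snrnp48, Snrpb2 and Snrpf). Run codes did not all share this placement. Within SCP-1706013, Lsm2, Lsm3, Lsm4, Lsm6, Lsm10, Snrnp27, Snrnp40, Snrpa, Snrpd1 and Snrpd3 of the 20 had the larger step between low and mid. So had Lsm10 and Snrnp25 within SCP-170608, where Lsm1 and Snrpf of the 6 had it between mid and high. Over the 4216 genes with a high minus low difference of −1 or less, 60.3% had the larger step between low and mid. These genes were not matched to the members by their level in low cells, and the part that level plays was not tested. Snrpa1 differed by −0.96 and then −4.45, and Snrpe by −0.96 and then −3.99. The opposite course over all cells was that of Lsm8, whose run codes are given above, and of Snrpb2, at −3.36 and then −1.34. For Lsm5 and Snrpf the 2 steps were nearly equal, at −2.72 and −2.55 for Lsm5 and at −2.91 and −2.74 for Snrpf. The steps share the mid cells and were not tested against each other.

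**Figure D4:**
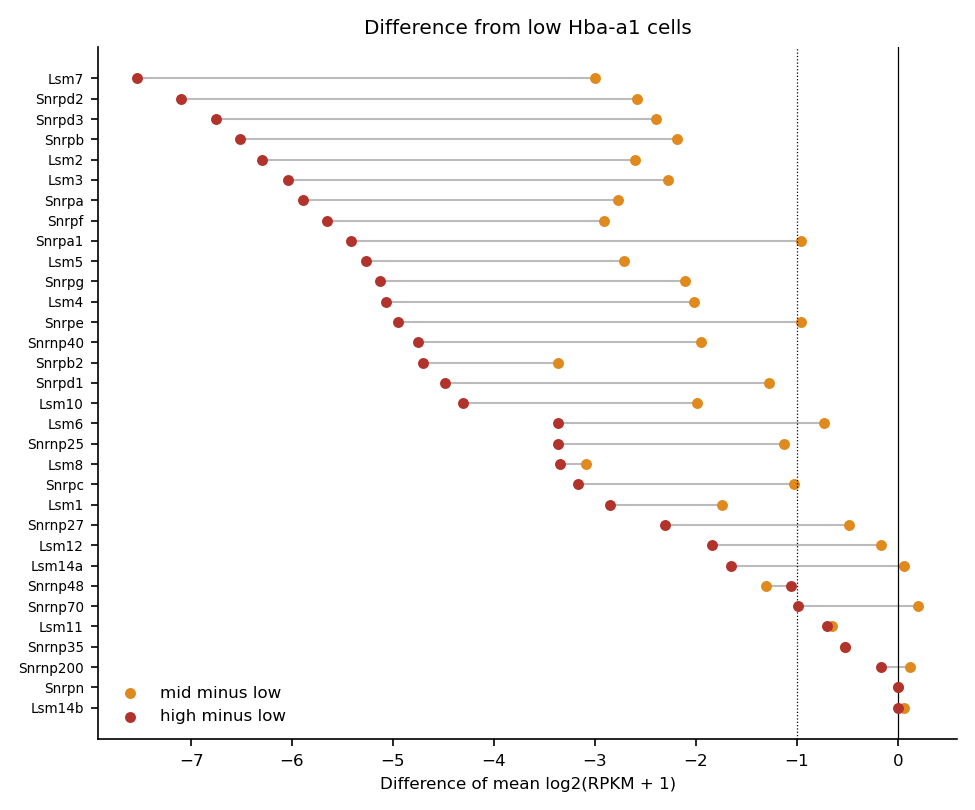
Difference of mean log2(RPKM + 1) from low cells (horizontal axis) for each of the 32 genes, in mid cells (orange) and high cells (red), joined by a grey line, with a dotted line at −1. Lsm7 reaches −7.53 in high cells, and for Lsm8 the points lie close together at −3.09 and −3.34.

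Sequence upstream of the genes was read for what the members share beyond their names. For 26 of the 32 genes, 32 start sites were used from the RefSeq-derived table of build GRCm38.p6. This build is not that of the expression table. No start of Lsm1, Lsm4, Lsm12, Snrnp40, Snrpb or Snrpd1 was used, whether or not the table holds one. The member shares below thus leave out these 6 genes. Motifs were searched on both strands of the 250 bases before each start. The 4 sequences below are the 150 bases before the start site of the 3 genes whose low and high cells did not overlap and of Lsm8, chosen after the values were seen. Capitals mark the GC box of SP1 (GGGCGG or its reverse CCGCCC), the ETS core (CCGGAA or TTCCGG) and the CCAAT box (CCAAT or ATTGG).
Lsm7, chr10:80855210-80855359, minus strand: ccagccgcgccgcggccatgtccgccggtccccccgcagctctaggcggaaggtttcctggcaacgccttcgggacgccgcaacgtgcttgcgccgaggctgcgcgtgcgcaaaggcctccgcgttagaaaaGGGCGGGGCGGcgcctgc
Snrpd2, chr7:19149688-19149837, plus strand: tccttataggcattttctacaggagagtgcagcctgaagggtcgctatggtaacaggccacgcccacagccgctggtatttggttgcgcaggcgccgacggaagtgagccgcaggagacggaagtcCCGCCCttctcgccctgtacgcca
Snrpg, chr6:86371390-86371539, plus strand: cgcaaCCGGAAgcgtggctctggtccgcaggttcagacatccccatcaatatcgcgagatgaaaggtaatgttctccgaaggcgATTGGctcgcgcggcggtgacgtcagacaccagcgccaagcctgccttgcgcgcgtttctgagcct
Lsm8, chr6:18848485-18848634, plus strand: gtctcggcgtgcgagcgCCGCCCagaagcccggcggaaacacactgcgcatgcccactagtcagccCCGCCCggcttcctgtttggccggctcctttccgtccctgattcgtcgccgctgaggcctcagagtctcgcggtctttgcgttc

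The GC box stood in 18 of the 32 starts (56.2%), against 32.7% of all 32851 starts in the table, and the ETS core in 9 (28.1%) against 12.0%. The CCAAT box was found in 9 (28.1%) against 33.8%, and TATAAA or TTTATA in 3 (9.38%) against 12.4%. Longer cores of NRF1 and YY1 stood in 1 start each, against 0.782% and 0.301% of all starts. At the printed start of Lsm7 the GC box occurred as overlapping copies 18 and 13 bases before the start, in Snrpd2 24 bases before it, and in Lsm8 133 and 84 bases before it. Lsm7 had another start in the table that is not printed, and the YY1 core stood there. The Snrpg sequence held an ETS core 145 bases and a CCAAT box 66 bases before the start. A match is a description of letters, and 1 gene can have several starts, so starts are not independent. Snrpn, listed at 0 in the 4 groups, supplied several member starts. Bases after the start matched a transcript of the same symbol for 28 of the 32 starts. The shares over all starts of the table, unlike those of the members, were taken with no gene left out, whether or not it was detected. These starts were not matched by GC content. The printed sequences held 60.7% to 73.3% GC. Whether the shares are particular to this family was not tested.

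In Mpo-high cells the family was near the level of low Hba-a1 cells. The member mean was 5.31 at the median (2.65 to 5.82), beside 5.49 in low cells, and a median of 25 genes was detected (14 to 29). Compared with low cells, 5 of the 32 genes were lower, 3 were higher and 24 met neither call, with 20.3% of genes tested lower and 19.6% higher. Without the condition on run codes 7 were lower and 3 higher, beside 24% and 20.9%. The median difference was −0.36 beside −0.12 over all genes tested, and within SCP-170608, where alone both groups had 3 or more cells, 0.05 beside 0.13. Cell 12 stood apart among the Mpo-high cells, and the 8 others had a median of −0.02, with lower calls for 3 genes and higher calls for 2 (16.4% and 23.8% of genes tested). Without the 2 Plac8-high low cells it was −0.56, with 7 lower and 4 higher (27.6% and 18.6% of genes tested).

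None of the 7 Sm core genes met a call between Mpo-high and low cells, and all 7 were detected in 9 of 9 Mpo-high cells. Their differences ran from −0.71 (Snrpd3) to 0.03 (Snrpd1). Snrpg was listed at 412 to 1529 RPKM in Mpo-high cells (median 634), Snrpe at 347 to 1142 (median 549) and Snrpb at 75.4 to 1087 (median 592), ranges that overlap those of the low cells. Snrpd2 ran from 170 to 700 RPKM (median 395), Snrpf from 41.4 to 529 (median 245), Snrpd1 from 103 to 812 (median 252) and Snrpd3 from 4.21 to 516 (median 194).

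The 5 genes called lower were Lsm1, Lsm2, Lsm4, Lsm7 and Lsm10. Lsm1 was detected in 2 of 9 Mpo-high cells (highest 29.5 RPKM) and 7 of 10 low cells, a difference of −2.76. Lsm2 was listed at 0 to 165 RPKM (median 62.2, detected in 7 of 9), a difference of −2.34 from the low cells' 64.6 to 224. Lsm10 was detected in 5 of 9 cells (median 3.24 RPKM, 0 to 89.8), a difference of −1.96. These 3 genes remained lower without cell 12 (−2.67, −1.74 and −1.61), while groups overlapped for each. Of 21 alternative settings, Lsm1 kept its call in 21, Lsm10 in 20 and Lsm2 in 17. Lsm10 lost it with cells of at least 500 genes (−0.38), and Lsm2 lost it there (−0.07), without code SCP-1706080 (−0.62), with 3 equal parts of the erythroid cells (−1.16) and with no cell set aside (−1.86). Lsm4 (−1.30) and Lsm7 (−1.07) did not keep their call without cell 12, at −0.41 and −0.10, and Lsm7 also lost it after rescaling to the total (−0.82) and without the Plac8-high cells (−0.85).

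Lsm4 was at 0 to 613 RPKM in Mpo-high cells (median 257) and Lsm7 at 0 to 907 (median 428). Lsm3, Lsm5, Lsm6 and Lsm8 met no call, with medians of 244, 168, 37.8 and 118 RPKM and a detection in 8, 8, 7 and 8 of 9 cells. The ring of Lsm2 to Lsm8 was detected whole in 7 of 9 Mpo-high cells, and that of Lsm1 to Lsm7 in 2 of 9 (22.2%, 2.81% to 60.0%) against 6 of 10 low cells (60%, 26.2% to 87.8%), intervals that overlap. Without the 2 Plac8-high low cells, Lsm1 to Lsm7 were whole in 6 of 8 low cells (75%, 34.9% to 96.8%), and the intervals still overlap.

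The 3 genes that were higher in Mpo-high cells differ in role. Snrnp48 was detected in 7 of 9 (median 7.43 RPKM, 0.449 to 41.1) against 4 of 10 low cells, a difference of 2.07. Lsm12 was detected in 7 of 9 (median 33.3 RPKM, 0 to 75.5) against 5 of 10, a difference of 1.62. Snrnp200, detected in 4 of 9 with a highest value of 81.5 RPKM in cell 12, differed by 1.06, and by 0.51 without that cell. Snrnp48 and Lsm12 kept their call without cell 12, at 2.15 and 2.13. Both lost it at a pseudocount of 10 in place of 1, at 0.84 and 0.75. Lsm12 also lost it with Hba-a1 limits of 100000 and 300000 RPKM (0.999) and without SCP-1706080 (0.84). Snrnp200 kept its call in 12 of 20 alternative settings.

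Of the other snRNP proteins, Snrpa was at 0.291 to 726 RPKM in Mpo-high cells (median 122), Snrpc at 0 to 287 (median 99.4) and Snrnp70 at 0 to 22.6 (median 2.61). Snrpa1 had a median of 81.4 RPKM (0 to 249), Snrpb2 of 43.9 (0 to 155), Snrnp40 of 98.0 (0 to 146), Snrnp27 of 45.6 (0.223 to 62.1) and Snrnp25 of 114 (0 to 255). None of these met a call against low cells, and Snrnp40 (−1.21) had opposite signs overall and within SCP-170608 (0.59), as had Lsm8 (−1.06 and 0.65). Lsm14a was detected in 4 of 9 (highest 28.9 RPKM), Lsm11 in 4 of 9 (highest 8.79) and Snrnp35 in 1 of 9.

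**Figure D5:**
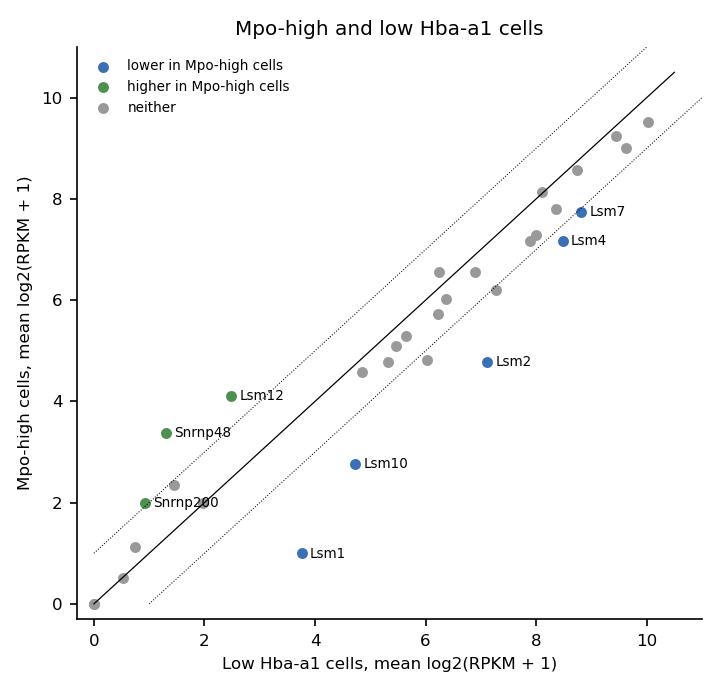
Mean log2(RPKM + 1) of each of the 32 genes in 9 Mpo-high cells (vertical axis) against 10 low Hba-a1 cells (horizontal axis), with the line of equality and dotted lines at a difference of 1. Lsm1, Lsm2, Lsm10, Lsm4 and Lsm7 are called lower and Snrnp48, Lsm12 and Snrnp200 higher in Mpo-high cells. Snrnp40 (−1.21) and Lsm8 (−1.06) also lie beyond the dotted line, without a call, and the other points lie between the dotted lines.

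Compared with the high Hba-a1 cells, with which the previous comparisons share cells, 28 of the 32 genes were higher in Mpo-high cells and 0 lower, where 67.2% of genes tested were higher and 5.82% lower. The median difference was 3.50 beside 2.04 over all genes tested. It was 3.92 beside 2.11 within SCP-170608 and 2.90 beside 1.90 within SCP-1706080. The Sm core genes lay 4.51 (Snrpd1) to 6.93 (Snrpd2) above the high cells, and for Snrpd2 alone of the 32 the groups did not overlap, where 2.78% of genes tested lay wholly higher in Mpo-high cells. Of the LSm ring, Lsm7 differed by 6.47 and Lsm1, detected in 2 of 9 and 5 of 28 cells, by 0.09, the only ring gene without a call.

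Other genes of the splicing pathway were taken from a list that holds no member, with 62 symbols in the table, of which 49 met the filter on low values. Between high and low cells, lower calls were made for 41 of the 62 and higher calls for 0, with a median of −1.82. The 64% lower and the median of −1.93 over all genes tested cover only genes that met the filter. They are thus not a like measure for the 62. Without the filter, 17% of 24321 symbols were lower. SF3 and U2AF, which mark the branch site and 3′ splice site for U2, had 11 of 12 genes lower (median −3.73), and the U5 and tri-snRNP proteins 10 of 13 (median −2.84). Of the SMN complex, which loads Sm rings onto RNA, 5 of 9 were lower (median −1.48), and of the decapping partners of the cytoplasmic LSm ring 1 of 7 (median −0.47). The filter on low values was met by 12 of 12, 12 of 13, 7 of 9 and 3 of 7 genes of these 4 lists. Their counts are thus not alike in detection. The largest differences were those of Sf3b4 (−5.46, detected in 9 of 10 low and 5 of 28 high cells), Phf5a (−5.30), both of SF3, and Clns1a (−5.23), which chaperones Sm proteins. At the other end were Tgs1 (−1.35), which modifies the snRNA cap, and, without a call, the decapping enzyme gene Dcp2 (−0.85) and the importin Kpnb1 (−0.51).

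In mid cells, 24 of these 62 genes were lower and 0 higher (median −0.91). Lower calls were made for 44.3% of genes tested, which all met the filter, and 11.9% of all symbols. All 3 genes of Sm protein methylation were lower (median −1.83). Over the 62 genes the largest differences were those of Clns1a (−4.65), Smn1 (−4.12), the gene of the SMN protein, and Nhp2l1 (−3.70), a U4-binding protein. Slbp, which binds the histone mRNA stem-loop and works with the U7 snRNP, had medians of 707 RPKM in low, 678 in mid and 87.7 in high cells, and its mid minus low difference was 0.33. U2af2 of U2AF (0.58) and Sf3b2 of SF3 (0.01) also met no call. In Mpo-high cells 11 of the 62 were lower than in low cells and 6 higher (median −0.09). The shares were 20.3% and 19.6% of genes tested, and 5.6% and 8.36% of all symbols. Phf5a (−2.42), Slbp (−2.28) and Crnkl1 (−2.22) were lowest and U2af2 (2.12), Wdr77 (1.51), an Sm methylation factor, and Sf3a3 (1.38) highest. Against high cells, 45 of the 62 were higher and 0 lower, beside 67.2% of genes tested and 21.4% of all symbols higher. Their median was 2.04, the same as over the genes tested, which all met the filter. The largest differences there were those of Sf3a3 (5.98), Sf3b4 (5.39) and Txnl4a (5.33), and the smallest those of Dcp2 (0.71), Kpnb1 (0.78) and Slbp (1.19).

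Another scale of the values moves the sizes but not the direction of the comparisons along Hba-a1. After rescaling each cell to a total of 1000000, the median of all genes tested moved by −0.43 between high and low cells, 71.5% of them were lower, and 27 members were lower with a median of −5.04. With globin genes removed before rescaling, 25 members were lower (median −4.34), beside 60.9% of genes tested, and 16 in mid cells (median −1.66), beside 40.9%. Without the 2 Plac8-high low cells, 24 members were lower in high cells (median −4.09, 65.5% of genes tested lower), with Lsm8 and Snrnp48 (−0.71) no longer called, and 21 in mid cells (median −1.74, 49.7%). Between Mpo-high and low cells, rescaling to the total gave a median of −0.10 with 4 members lower and 4 higher, and 17.6% of genes tested lower and 24.4% higher. For high cells, a comparison among cells with at least 2000 genes held 2 high cells and is not given.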

How the data were processed

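The authors deposited RPKM per transcript, with 34899 transcript rows for 24321 symbols in 96 cells. TopHat2 2.0.9 was used with the build mm9, per the submitters' processing notes. How reads were counted was not given in the sources used here. Members, groups and gene lists were chosen with earlier results of these data known. Values were used as log2(RPKM + 1), which understates differences of low genes, and an exact 0 was read as listed at 0. Depth was estimated from the steps between low values, with transcript lengths found for 97.6% of rows, and its unit may be a read or a read pair. Of cells with at least 1000 genes, the Mpo-high cells were taken first, whichever marker lists they met. Of the rest, a cell was set aside by 8 lists of other lineages. It needed 3 or more markers of a list, making up 50% or more, at 10 RPKM. The remaining cells were grouped by Hba-a1. The lists were of neutrophil, monocyte or macrophage, mast or basophil, megakaryocyte, B cell, T or NK, stem or multipotent and stroma or endothelium markers. A rule for cells poor in erythroid markers caught 0 cells. Doublets were not called, and captures of 2 cells were not tested. Full values were given for the Sm core, Lsm1 to Lsm8 and any member found in 50% or more of a group's cells. Of the other splicing genes, the 3 with the largest difference in each direction per comparison were named among those so detected. Run codes are those of the sample descriptions (3 codes), and titles and column names carry 1. Scripts used Python 3.11.15, numpy 2.4.6, pandas 2.3.3, scipy 1.17.1 and matplotlib 3.10.9 and were tested on simulated data. Intervals are exact Clopper-Pearson intervals at 95%. Ahsp and Spna1 of the erythroblast list were not analysed here.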

Additional observations from a re-analysis of the deposited data

Results flagged for a closer look

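Among the 9 Mpo-high cells, cell 12 lay apart with a member mean of 2.65, where the next cell had 4.36 and the highest 5.82. Its gap took a share of 0.538 of the group's range, above Dixon's 95% critical value for 9 values. For the 8 LSm ring genes its mean was 0.0354, with the next cell at 5.11 and a share of 0.688. This cell listed 7 of the LSm ring genes at 0 and Lsm1 at 0.217 RPKM, while it detected all 7 Sm core genes, among them Snrpe at 1142, Snrpd1 at 789 and Snrpg at 618 RPKM, and had the group's highest Snrpa, at 726 RPKM. It detected 1842 genes at an estimated depth of 1957.2 in units of 1000 reads, the fewest genes and the lowest depth of the Mpo-high cells, and the part these play was not tested. Of 6 values tested in this way, chance flags about 1 in 20.

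Of the 27 cells under the gene minimum, which entered no comparison, 18 listed at least 1 member at 1 RPKM or more, with a median of 1 member and a highest of 9.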

How the results depend on the processing

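No paired analysis was possible because all cells carry 1 group label and no test was made. High minus low, with 26 members lower at a median of −4.39, kept its direction under all settings that gave a value, and its median was −6.07 at a pseudocount of 0.1, −2.34 at 10, −2.79 with cells of at least 500 genes and −3.54 with no cell set aside. Mpo-high minus high moved from 3.50 to 5.51 at a pseudocount of 0.1 and 1.78 at 10. For mid against low cells, the 19 lower members became 4 at 500 genes, 11 with Hba-a1 limits of 100000 and 300000 RPKM and 10 with no cell set aside, and 3 equal parts of the cells gave a median of −2.72. Mpo-high against low cells (median −0.36, 5 lower, 3 higher) was the least stable. Its median turned to 1.41 at 500 genes (15 low cells) and to 0.055 with no cell set aside (14 low cells). Its lower members were 3 at a pseudocount of 10, at 2000 genes, with equal parts and without cell 12, 1 at 500 genes, 12 without code SCP-170608 and 2 without SCP-1706080. Its higher members were 0 at a pseudocount of 10, 19 at 500 genes, 1 with the other limits, and 5 with no cell set aside and without SCP-1706080. At 500 genes Lsm4 and Lsm7 reversed to 0.83 and 1.87. The causes were not tested. The high group had 2 cells at 2000 genes, so that comparison was not given. Leaving out the 2 Plac8-high cells, cell 12 or cell 94, and making calls with no condition on run codes, were chosen after seeing the data. Without cell 94, Snrpd1 (−0.88) and Snrnp25 (−0.86) lost their call in mid cells. A listed 0 does not tell an absent transcript from one missed at this depth.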

Other observations

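Snrnp25 lies beside the alpha globin genes. In the order of the annotation (GRCm38.p6) it is followed by Rhbdf1, Mpg, Nprl3, Hba-x and Hba-a1, so that 4 genes stand between Snrnp25 and Hba-a1. Across the Hba-a1 level the neighbours differed in direction. Between high and low cells Snrnp25 differed by −3.36 and Mpg, a DNA repair glycosylase, by −2.46, both called lower. Nprl3, whose introns hold alpha globin enhancers, differed by −1.29 and met no call. Hba-x, the embryonic zeta globin gene, differed by 5.75, was detected in 3 of 10 low, 17 of 18 mid and 28 of 28 high cells, and had a median of 7.51 RPKM in mid and 29.7 in high cells. Reads of Hba-x could be shared with the adult alpha globin genes, and the sources used here do not say how these were assigned. Rhbdf1 was listed at a median of 0 and detected in no cell of the 4 groups. Mpg and Nprl3 were detected in 8 and 13 of 28 high cells and in 4 and 3 of 9 Mpo-high cells, where Snrnp25 was detected in 7 of 9.

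High cell 73 was the 1 high cell that detected all 7 Sm core genes. Its Sm core mean was 8.01, where the next high cell had 5.58, at an Hba-a1 level of 439292 RPKM, 1859 genes detected and an estimated depth of 7308.8 in units of 1000 reads. It detected 5 of the 8 LSm ring genes, with a ring mean of 3.72.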
